A study of Mus musculus with 2 samples.

Results

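The 31 genes described here make up glycolysis and the response to low oxygen: the glucose transporter, the enzymes from hexokinase to pyruvate kinase, the lactate and pyruvate branch, the hypoxia-inducible factor HIF-1 alpha with its prolyl hydroxylases, and known targets of that factor. They were chosen by function, as a list of gene names, with earlier results of these data known. They are 31 of the 31053 genes in the count tables. The study measured the RNA of single lung cells of C57BL/6JRj mice that had received lipopolysaccharide (LPS, a bacterial cell wall component that induces acute lung injury) or saline, with killing 24 h later. Lungs were lavaged and digested with dispase, the cells were tagged with a barcoded antibody to EpCAM, a surface protein of epithelia, that differed by group, and live EpCAM+ cells were loaded together on a 10x lane. The 4 groups were old LPS (18 months, LPS at 2.5 mg/kg body weight), old control (18 months, saline), young LPS (3 months, LPS at 2.5 mg/kg body weight) and young control (3 months, saline). Each group has 2 libraries, one in each of 2 lanes, which the labels describe as independent biological repeats. How many mice went into a library is not given, so the p-values here measure the spread between these libraries.

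Glycolysis splits glucose into pyruvate and yields ATP without oxygen, and lactate dehydrogenase then turns pyruvate into lactate. HIF-1 alpha is hydroxylated and degraded while oxygen is present, and when it persists it pairs with ARNT and binds short DNA elements near its target genes, among them most glycolytic enzymes. Alveolar type 2 (AE2) cells, the main cells behind an EpCAM sort of distal lung, make surfactant and are also a source of the vascular growth factor VEGF-A in the lung.

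The tables held 85889264 UMIs (unique RNA molecules counted) over 14048 barcodes, with 6228266 to 15435789 UMIs per library, and 11232 cells passed the filters. Of these, 8830 formed 8 clusters that carried AE2 markers and are called AE2-like, with 737 to 1414 cells per library. Their 9 AE2 markers summed to 95565 to 130780 CPM (counts per 1000000 UMIs of those cells in the library) in the LPS libraries, against 271160 to 309830 CPM in the control libraries. Marker RNA of ciliated cells summed to 32.5 to 47.4 CPM in LPS, against 132 to 141 CPM in control, over 10 markers of which none was at 0 in every library. The 5 platelet markers summed to 132 to 203 CPM in LPS, against 15.1 to 23.9 CPM in control, with Gp9 and Gp1bb, 2 of the 5, at 0 in every library. Only 2 of the 5 had enough counts for the test described below, and 1 of them was called higher after LPS in young mice. The markers of alveolar macrophages (9), monocytes and macrophages (9) and neutrophils (7) each summed to at most 19.5 CPM in LPS and at most 46.9 CPM in control libraries, with 1 monocyte and macrophage marker at 0 in every library. The 9 club and secretory cell markers, none at 0 in every library, summed to 680 to 2158 CPM in LPS, against 1722 to 4754 CPM in control libraries, and the 7 B cell markers, 1 of them at 0 in every library, to 43.8 to 58.4 CPM in LPS, against 34.8 to 43.0 CPM in control. The median mitochondrial share of AE2-like cells was 5.87% to 6.51% in LPS, against 6.87% to 8.13% in control libraries, and their median depth 7602 to 9096.5 UMIs in LPS, against 5737 to 7091.5 UMIs in control libraries. The part of these shifts in the results below was not tested. The second old LPS library stood apart from the other LPS libraries: 23.1% of its AE2-like cells lay in clusters made mostly of control cells, against 3.29% in the first old LPS library and 4.06% and 9.43% in the young LPS libraries.

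The list holds many genes known as HIF targets, so the promoters were searched for the letters HIF binds. A window of 250 bases before the annotated start was taken from RefSeq (build GRCm38.p6) for 29 of the 31 genes, with Bhlhe40 and Ndrg1 not matched. RefSeq gives some genes several starts, so the 29 genes have 39 windows, and a gene was counted where any of its windows held the letters. Some of these starts lie inside the gene as GENCODE annotates it, among them the one used for Hif1a, 6492 bases inside. The core of the hypoxia response element was searched as ACGTG or GCGTG, and on the other strand as CACGT or CACGC. It occurred in 26 of the 29 genes (89.7%), against 11226 of 27025 genes with a window (41.5%). Counted by window, it occurred in 31 of 39 (79.5%), against 38.6% of all 32851 windows. The E-box CACGTG, which contains the core on both strands, occurred in 4 of the 29 genes (13.8%), against 6.86% of all genes with a window. Among the genes with a window, the core was present in 11 of 12 that rose and 4 of 4 that fell in AE2-like cells of old mice after LPS, and in 9 of 10 that rose and 6 of 6 that fell in those of young mice. It was also present in 8 of the 10 members with a window that were tested and not called at each age. A match describes letters only and is not a measured binding site, and genes picked as known HIF targets are no independent sample of promoters. The background was every gene with a window, not matched for base composition or for expression in these cells. Both forms of the core contain the letters CG, and the part of base composition in the contrast was not tested. The stretches below are shown because their genes behaved differently after LPS: Slc2a1, Hk2, Pgk1 and Hif1a rose at both ages, P4ha1 and Pdk1 fell at both ages, and Adora2b fell in young and rose in old mice. Each is written along the strand of its gene, and the capitals mark 1 core.
Slc2a1 at chr4:119108682-119108740, plus strand: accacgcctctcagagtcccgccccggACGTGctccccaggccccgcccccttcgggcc
Hk2 at chr6:82774475-82774533, minus strand: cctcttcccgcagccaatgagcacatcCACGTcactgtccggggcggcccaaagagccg
Pgk1 at chrX:106186923-106186981, plus strand: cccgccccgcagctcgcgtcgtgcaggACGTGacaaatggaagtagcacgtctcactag
Hif1a at chr12:73907770-73907828, plus strand: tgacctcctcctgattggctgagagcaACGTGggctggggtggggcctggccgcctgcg
P4ha1 at chr10:59323143-59323201, plus strand: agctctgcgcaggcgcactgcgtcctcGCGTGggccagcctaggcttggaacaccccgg
Pdk1 at chr2:71873119-71873177, plus strand: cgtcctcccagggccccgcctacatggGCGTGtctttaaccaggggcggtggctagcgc
Adora2b at chr11:62248915-62248973, plus strand: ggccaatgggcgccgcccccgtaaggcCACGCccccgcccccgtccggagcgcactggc

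In AE2-like cells LPS moved the list in both directions. Hif1a itself, the glucose transporter Slc2a1, hexokinase 2 and several enzymes of lower glycolysis rose at both ages, while Vegfa, P4ha1 and Pdk1 fell at both ages. The counts were summed per library and tested with edgeR's quasi-likelihood test, and a gene was called at a Benjamini-Hochberg adjusted p under 0.05 over all 11386 genes tested. Of the 31 members 28 passed the filter on low counts. In old mice 13 members rose and 4 fell after LPS, beside a background of 25.1% of all genes called higher and 23.2% called lower. In young mice 10 rose and 7 fell, beside 21.9% called higher and 18.4% called lower. The median log2 fold change of the tested members was 0.37 in old and 0.21 in young mice, where that of all genes was -0.01 at each age. Of the 28, 9 rose at both ages, 3 fell at both ages and 7 were called at neither. The matching shares over all genes are not given here, so these counts stand without a background. Within each lane taken alone, 16 of the 17 members called in old mice had a ratio on the side of the call in both lanes. The remaining one, Pfkfb3, had no UMI in the first old control library. In young mice 17 of the 17 called had such a ratio in both lanes. The calls were made on these same libraries, so the lane counts describe the called members and are no separate test.

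**Figure D1:**
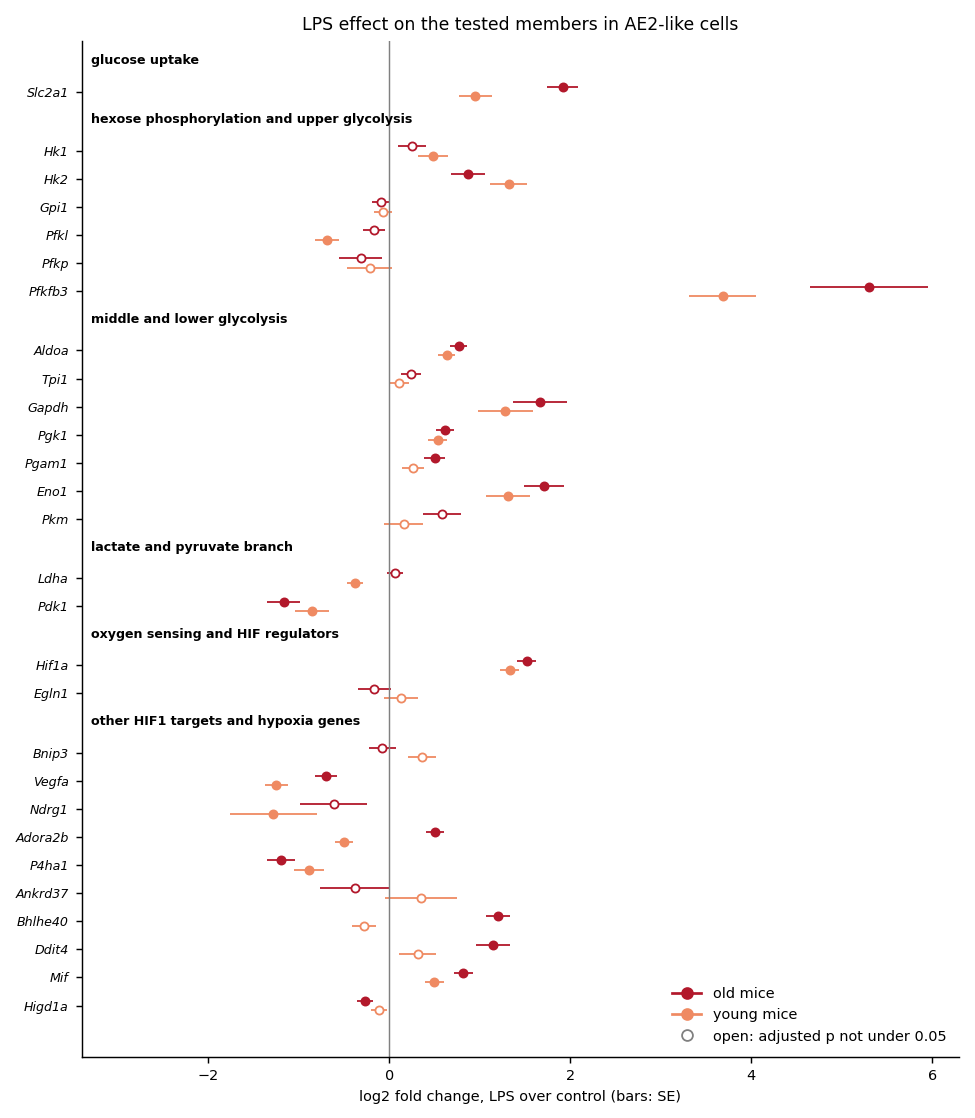
Log2 fold change after LPS (horizontal axis, edgeR with TMM scaling) of the 28 tested genes in AE2-like cells, ordered by role, with old mice above young mice for each gene. Bars are standard errors, filled points are called at an adjusted p under 0.05 and open points are not. The points for Adora2b lie on opposite sides of 0 (0.51 in old mice and -0.50 in young mice), and the fitted point for Pfkfb3 in old mice rests on 1 control UMI.

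Glucose enters through Slc2a1 (GLUT1, ENSMUSG00000028645, chromosome 4), which had 27.2 and 24.0 CPM in old LPS and 7.60 and 6.56 CPM in old control libraries. In young mice it had 18.8 and 16.6 CPM in LPS and 10.8 and 8.06 CPM in control libraries. Every LPS library lay above every control library, and the old LPS libraries were the highest. The log2 fold change was 1.92 ± 0.17 (SE) in old mice (adjusted p = 2.3e-07) and 0.95 ± 0.18 in young mice (adjusted p = 0.000646). Values after ± are standard errors for fold changes throughout.

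Hk2, the inducible hexokinase that traps glucose in the cell as its phosphate, had 46.5 and 70.4 CPM in old LPS and 38.0 and 28.9 CPM in old control libraries. Young LPS libraries had 63.8 and 63.2 CPM and young control libraries 23.9 and 26.5 CPM. The groups did not overlap at either age, though the first old LPS library came within 10 CPM of an old control library. It rose by 0.87 ± 0.19 in old (adjusted p = 0.00439) and 1.32 ± 0.20 in young mice (adjusted p = 0.000783). Hk1, the constitutive hexokinase, had 26.7 and 19.3 CPM in old LPS, 20.9 and 19.4 CPM in old control, 28.5 and 24.8 CPM in young LPS and 17.9 and 19.8 CPM in young control libraries. It rose in young mice by 0.48 ± 0.17 (adjusted p = 0.0291), while in old mice the groups overlapped (0.25 ± 0.16, adjusted p = 0.202). The young call was lost under 4 of 14 alternatives, among them leaving out the first young LPS library or either young control library, with an adjusted p of up to 0.174.

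Gpi1, the isomerase that follows hexokinase, lay between 81.8 and 103 CPM in all 8 libraries and was called at neither age (-0.09 ± 0.10 in old and -0.07 ± 0.10 in young mice). Of the phosphofructokinase subunits, Pfkl had 24.9 and 24.3 CPM in old LPS, 30.9 and 26.7 CPM in old control, 19.5 and 18.5 CPM in young LPS and 28.2 and 32.4 CPM in young control libraries. Both young LPS libraries lay below all other libraries, and Pfkl fell in young mice by 0.69 on the log2 scale (SE 0.13, adjusted p = 0.000563). In old mice it was not called (-0.17 ± 0.12, adjusted p = 0.262). Pfkp stayed between 4.68 and 7.76 CPM and was called at neither age.

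Pfkfb3, the kinase that makes the main activator of phosphofructokinase, was rare in AE2-like cells of control mice and present after LPS. It had 30 and 49 UMIs in old LPS libraries (2.67 and 3.84 CPM), against 0 and 1 UMI in old control libraries. In young mice it had 80 and 91 UMIs in LPS (10.4 and 9.97 CPM), against 4 and 5 UMIs in control libraries (0.957 and 0.672 CPM). It rose at both ages (adjusted p = 7.66e-06 in old and 1.01e-06 in young mice). With 1 UMI in old controls the ratio is loose: 79 against 1 UMI is a CPM ratio of 46.0, with an exact 95% interval of 8.02 to 1838.5 that covers counting error only. In young mice the log2 fold change was 3.69 ± 0.37.

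In middle and lower glycolysis, from aldolase to pyruvate kinase, 5 of 7 enzymes rose in old and 4 of 7 in young mice, with none falling. Among the genes above from hexokinase to Pfkfb3, 2 of 6 rose in old mice, and 3 of 6 rose and 1 fell in young mice. Over all genes 25.1% were called higher in old and 21.9% in young mice, and no test sets these counts apart. Aldoa, the aldolase of most tissues, had 395 and 349 CPM in old LPS, 225 and 230.5 CPM in old control, 347 and 354 CPM in young LPS and 216 and 234 CPM in young control libraries. All LPS libraries lay above all control libraries, by 0.77 ± 0.09 in old (adjusted p = 7.72e-06) and 0.64 ± 0.10 in young mice (adjusted p = 6.61e-05).

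Gapdh, the dehydrogenase of the pathway, had 619 and 349.9 CPM in old LPS and 180.3 and 138 CPM in old control libraries. In young mice it had 373 and 360.0 CPM in LPS and 151 and 149.7 CPM in control libraries. The first old LPS library was far above the rest, and the LPS and control libraries did not overlap. It rose by 1.67 ± 0.30 in old (adjusted p = 0.00781) and 1.28 ± 0.30 in young mice (adjusted p = 0.0231). The young call was lost under 5 of 14 alternatives, including when any 1 of the 4 young libraries was left out (adjusted p up to 0.0923). For Gapdh 38.4% of the 90-base stretches near its transcript ends also occur in 91 other annotated genes, so its count depends on how the authors' counting treated such reads.

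Pgk1, which makes the first ATP of the pathway, had 86.3 and 76.5 CPM in old LPS, 56.3 and 54.2 CPM in old control, 72.9 and 78.0 CPM in young LPS and 48.8 and 54.6 CPM in young control libraries. It rose by 0.62 ± 0.10 in old (adjusted p = 0.000117) and 0.54 ± 0.10 in young mice (adjusted p = 0.000712), without overlap. Eno1, an enolase, had 18.1 and 15.7 CPM in old LPS, 4.85 and 5.79 CPM in old control, 10.7 and 16.7 CPM in young LPS and 4.78 and 6.05 CPM in young control libraries. It rose by 1.71 ± 0.22 in old (adjusted p = 1.47e-05) and 1.31 ± 0.24 in young mice (adjusted p = 0.000502). Both share end sequence with near-identical copies (34.4% of stretches for Pgk1 and 33.1% for Eno1, whose copies include Eno1b), so their absolute levels are uncertain.

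Pgam1, the mutase, had 79.7 and 64.0 CPM in old LPS, 51.1 and 54.4 CPM in old control, 65.6 and 57.1 CPM in young LPS and 49.3 and 52.5 CPM in young control libraries. It rose in old mice by 0.50 ± 0.12 (adjusted p = 0.00241) and was not called in young mice (0.26 ± 0.12, adjusted p = 0.102), with 44.9% of its end stretches shared. Pkm, pyruvate kinase, had 266 and 167 CPM in old LPS, 153 and 149 CPM in old control, 154 and 142 CPM in young LPS and 141 and 125 CPM in young control libraries. The first old LPS library stood alone, and no call was made (0.58 ± 0.21, adjusted p = 0.0602 in old mice and 0.16 ± 0.22, adjusted p = 0.612 in young mice). With the lane as a replicate block, Pkm was called in old mice (0.55, adjusted p = 0.00975). Tpi1, the triose isomerase, lay between 85.4 and 114 CPM and was called at neither age.

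**Figure D2:**
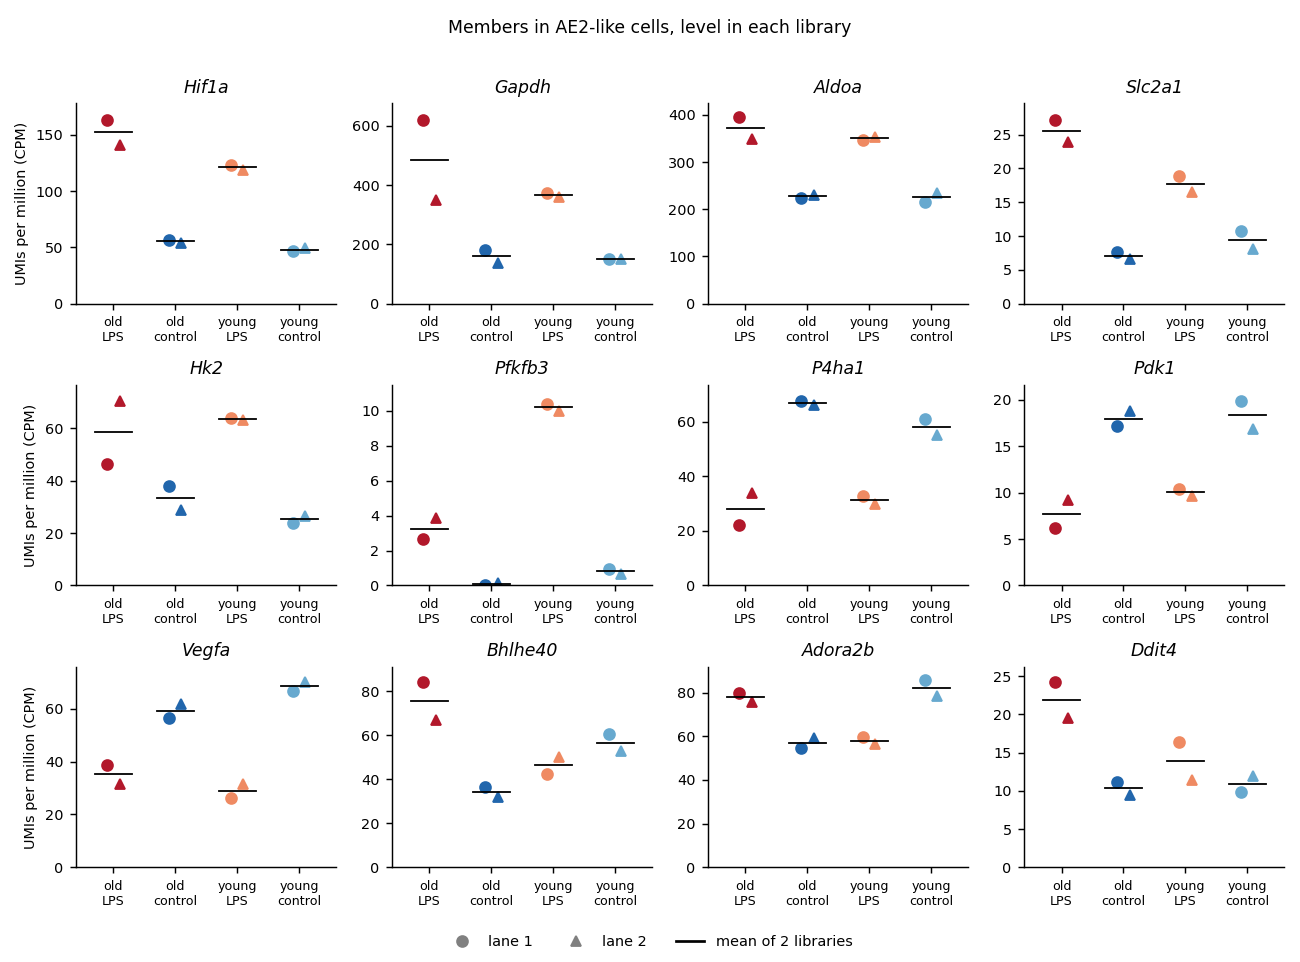
CPM per library (vertical axis, AE2-like cells) of 12 of the genes in old LPS, old control, young LPS and young control, with circles for the first lane, triangles for the second and a line at the mean of the 2 libraries. Hif1a lies between 119 and 164 in LPS libraries and between 46.4 and 56.6 in control libraries, while P4ha1 and Vegfa show the LPS libraries below the controls.

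At the lactate and pyruvate branch neither of the 2 tested members rose. Ldha, the subunit that favours lactate, had 288 and 292 CPM in old LPS, 276 and 300.2 CPM in old control, 253 and 247 CPM in young LPS and 319 and 328 CPM in young control libraries. The young LPS libraries lay below all others and Ldha fell in young mice by 0.37 on the log2 scale (SE 0.09, adjusted p = 0.00354). In old mice the libraries overlapped (0.07 ± 0.09, adjusted p = 0.556). Pdk1, which inhibits pyruvate dehydrogenase and so holds pyruvate out of the mitochondrion, had 6.15 and 9.16 CPM in old LPS, 17.1 and 18.8 CPM in old control, 10.4 and 9.65 CPM in young LPS and 19.9 and 16.8 CPM in young control libraries. It fell by 1.17 on the log2 scale in old mice (SE 0.18, adjusted p = 7.7e-05) and fell by 0.85 in young mice (SE 0.19, adjusted p = 0.00207). Slc16a3, the lactate exporter MCT4, was not tested: it had 4 and 2 UMIs in old LPS, 1 and 0 in old control, 1 and 2 in young LPS and 0 and 0 in young control libraries.

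Hif1a had 164 and 141 CPM in old LPS and 56.6 and 54.0 CPM in old control libraries. Young LPS libraries had 123 and 119 CPM and young control libraries 46.4 and 49.5 CPM. The LPS libraries lay far above the controls, and the old LPS libraries above the young ones. The rise was 1.52 ± 0.10 in old (adjusted p = 9.09e-09) and 1.33 ± 0.11 in young mice (adjusted p = 6.33e-08). These are levels of its mRNA, and HIF-1 alpha is set largely by the stability of the protein, which was not measured. Egln1, the prolyl hydroxylase that marks HIF for degradation, lay between 38.8 and 63.0 CPM and was called at neither age (-0.17 ± 0.18 in old and 0.13 ± 0.19 in young mice). Egln3, an inducible hydroxylase of the same family, had 1 UMI in all AE2-like cells.

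The other targets of HIF did not move one way. Of 10 tested, 4 rose and 3 fell in old mice, and 1 rose and 4 fell in young mice. The shares over all genes were 25.1% higher and 23.2% lower in old mice, and 21.9% higher and 18.4% lower in young mice. No test sets these counts apart from those shares. Vegfa had 38.7 and 31.7 CPM in old LPS, 56.4 and 62.0 CPM in old control, 26.1 and 31.5 CPM in young LPS and 66.98 and 70.1 CPM in young control libraries. It fell by 0.70 on the log2 scale in old mice (SE 0.12, adjusted p = 0.000203) and fell by 1.25 in young mice (SE 0.13, adjusted p = 1.15e-06). P4ha1, a subunit of the enzyme that hydroxylates collagen, had 22.0 and 33.8 CPM in old LPS, 67.6 and 66.2 CPM in old control, 32.9 and 29.8 CPM in young LPS and 61.0 and 55.1 CPM in young control libraries. It fell by 1.20 in old mice (SE 0.16, adjusted p = 6.31e-05) and fell by 0.89 in young mice (SE 0.16, adjusted p = 0.00115). For both genes every LPS library lay below every control library.

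Mif, a cytokine that is also a HIF target, had 249.8 and 215 CPM in old LPS, 144 and 131 CPM in old control, 182 and 203 CPM in young LPS and 142 and 131 CPM in young control libraries. It rose by 0.82 ± 0.10 in old (adjusted p = 1.12e-05) and 0.50 ± 0.11 in young mice (adjusted p = 0.00146), with 30.3% of its end stretches shared with copies. Ddit4 (REDD1), an inhibitor of mTORC1, had 24.2 and 19.6 CPM in old LPS, 11.2 and 9.51 CPM in old control, 16.4 and 11.4 CPM in young LPS and 9.81 and 11.96 CPM in young control libraries. It rose in old mice by 1.15 ± 0.19 (adjusted p = 0.000128), while in young mice the libraries overlapped (0.31 ± 0.21, adjusted p = 0.251).

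Bnip3, a receptor for the removal of mitochondria, had 38.8 and 57.8 CPM in old LPS, 52.2 and 53.9 CPM in old control, 67.9 and 72.8 CPM in young LPS and 56.5 and 53.1 CPM in young control libraries. The old libraries overlapped and the young LPS libraries lay above their controls, with no call at either age (-0.08 ± 0.15, adjusted p = 0.702 in old and 0.36 ± 0.15, adjusted p = 0.0757 in young mice). With the replicate block the young value was called (0.37, adjusted p = 0.0494). Higd1a, a mitochondrial protein induced by low oxygen, had 174 and 173 CPM in old LPS, 221 and 213 CPM in old control, 184 and 191 CPM in young LPS and 198 and 206 CPM in young control libraries. It fell in old mice by 0.27 (SE 0.09, adjusted p = 0.0181), a call that DESeq2, the unfiltered fit and the fits without either old control library did not give (adjusted p up to 0.111).

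The remaining targets were rare in AE2-like cells. Ndrg1, a stress-responsive gene, lay between 0.877 and 2.91 CPM, with 7 and 8 UMIs in young LPS and 5 and 21 UMIs in young control libraries. It was called lower in young mice (-1.28 ± 0.48, adjusted p = 0.0428), a call lost under 7 of 14 alternatives, among them leaving out either young LPS library, the second young control library or either old control library (adjusted p up to 0.708). Ankrd37 lay between 1.25 and 2.19 CPM with no call, and Adm, which encodes a vasodilator peptide, had 1 UMI in all AE2-like cells. In all, 9 members stayed under 20 CPM in each of the 4 groups: Pfkp, Pfkfb3, Eno1, Slc16a3, Pdk1, Egln3, Adm, Ndrg1 and Ankrd37.

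The LPS response of 2 members, Bhlhe40 and Adora2b, was called different between the ages. Bhlhe40, a transcriptional repressor, had 84.2 and 66.8 CPM in old LPS and 36.4 and 32.1 CPM in old control libraries. In young mice it had 42.5 and 50.3 CPM in LPS and 60.8 and 52.7 CPM in control libraries. It rose in old mice by 1.20 ± 0.14 (adjusted p = 4.75e-06) and was not called in young mice (-0.28 ± 0.14, adjusted p = 0.119). The difference between the ages, tested as the interaction of LPS and age, was 1.48 ± 0.19 (adjusted p = 0.00293). Lane by lane, the log2 ratio of LPS to control was 1.21 and 1.06 in old mice and -0.52 and -0.07 in young mice.

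Adora2b, the low-affinity adenosine receptor, had 79.8 and 75.9 CPM in old LPS and 54.6 and 59.1 CPM in old control libraries. Young LPS libraries had 59.5 and 56.6 CPM and young control libraries 85.9 and 78.3 CPM. It rose in old mice by 0.51 ± 0.10 (adjusted p = 0.000581) and fell by 0.50 in young mice (SE 0.10, adjusted p = 0.00105), an interaction of 1.01 ± 0.14 (adjusted p = 0.00328). Lane by lane, the log2 ratio was 0.55 and 0.36 in old mice and -0.53 and -0.47 in young mice. Both interactions were called under all 14 alternatives, with log2 values of 1.29 to 1.64 for Bhlhe40 and 0.94 to 1.098 for Adora2b and adjusted p of up to 0.0467. Over all genes 0.334% were called with a positive and 0.351% with a negative interaction. At an unadjusted p under 0.05 edgeR gave 8 of the 28 members a positive and 0 a negative interaction. The share of all genes at that unadjusted limit is not given here.

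Among control mice, the same 2 genes were called lower in old than in young AE2-like cells: Bhlhe40 by -0.77 ± 0.14 (adjusted p = 0.0288) and Adora2b by -0.57 ± 0.10 (adjusted p = 0.0205). DESeq2 did not give the lower call for Adora2b. No member was called higher, with edgeR or with DESeq2, and at an unadjusted p under 0.05 edgeR gave 0 higher and 4 lower. The background at the adjusted p was 0.263% of genes called higher and 0.378% called lower. For the unadjusted limit no share of all genes is given here. Both calls were lost when any 1 of the 4 control libraries was left out, with an adjusted p of up to 0.287 for Bhlhe40 and 0.278 for Adora2b.

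Among LPS mice, 4 members were called higher and 1 lower in old than in young cells, beside 1.66% of genes called higher and 2.39% called lower. Bhlhe40 was higher by 0.71 ± 0.13 (adjusted p = 0.00562), Ddit4 by 0.68 ± 0.17 (adjusted p = 0.0373), Slc2a1 by 0.55 ± 0.14 (adjusted p = 0.0426) and Adora2b by 0.44 ± 0.10 (adjusted p = 0.0181). Pfkfb3 was lower in old LPS cells (-1.62 ± 0.24, adjusted p = 0.00115), and this call was made under all 14 alternatives. The Slc2a1 call was lost with DESeq2 and when any 1 library other than the second old LPS library was left out (adjusted p up to 0.404). The Ddit4 call was lost with DESeq2 and when any 1 library other than the first young LPS or the second old LPS library was left out (adjusted p up to 0.449). The Adora2b call was lost with DESeq2 and without either young LPS library (adjusted p up to 0.212), and the Bhlhe40 call without the first young LPS library (adjusted p up to 0.0854). Hif1a, higher in old LPS by 0.34 ± 0.10 (adjusted p = 0.0575), was called with the replicate block (0.34, adjusted p = 0.0425), as was Bnip3 in the lower direction (-0.53, adjusted p = 0.0365). The number of members called in comparisons with the old LPS group changed with the library left out. Leaving out 1 of its 2 libraries also removes that group's own spread, so those counts cannot be read as a result about the members.

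Beyond the 31 members, 79 other genes of the same pathways were read from lists by function, of which 62 were tested in AE2-like cells. In old mice 19 rose and 21 fell after LPS, and in young mice 20 rose and 13 fell. The shares over all genes were 25.1% higher and 23.2% lower in old mice and 21.9% higher and 18.4% lower in young mice, and no test sets the counts by role below apart from them. Other isoforms of glycolytic enzymes mostly fell or did not pass the test, with 1 higher and 9 lower of 14 in old and 2 higher and 6 lower of 14 in young mice. Ldhb, the lactate dehydrogenase subunit that favours pyruvate, averaged 117 ± 23.1 CPM in old LPS and 299 ± 15.3 CPM in old control cells (SD, n = 2 each), and it fell by 1.29 on the log2 scale (adjusted p = 9.44e-07). In young mice it averaged 128 ± 2.36 CPM in LPS and 276 ± 32.5 CPM in control cells and fell by 1.11 (adjusted p = 5.95e-06). Pfkfb2, a relative of Pfkfb3, averaged 11.5 ± 3.61 CPM in old LPS and 24.2 ± 2.68 CPM in old control cells, and 14.2 ± 1.83 CPM in young LPS and 26.6 ± 1.11 CPM in young control cells, and fell at both ages (adjusted p = 0.000313 in old and 0.0013 in young mice). Pfkfb4 fell by 0.58 in young mice (adjusted p = 0.00081). In old mice it had 30.1 and 33.0 CPM in LPS and 43.5 and 44.3 CPM in control libraries, without overlap. Slc16a7, a carrier of lactate and pyruvate, fell by 1.15 in old mice (adjusted p = 0.00599). In young mice Slc16a7 had 20.4 and 32.0 CPM in LPS and 38.3 and 36.8 CPM in control libraries, also without overlap. Neither gene is named here for 1 age alone.

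Of 12 genes for the entry of pyruvate into mitochondria, 4 rose and 2 fell in old mice, and 6 rose and 1 fell in young mice. Mpc1, a subunit of the mitochondrial pyruvate carrier, rose by 0.75 ± 0.11 in old (adjusted p = 2.86e-05) and 0.98 ± 0.11 in young mice (adjusted p = 2.26e-06), while Pdk2, a pyruvate dehydrogenase kinase like Pdk1, fell by 1.02 in young mice (adjusted p = 0.000148). Pdk2 also fell in old mice, by 1.11 (adjusted p = 5.41e-05), at under 20 CPM in both groups: it averaged 7.04 ± 1.01 CPM in old LPS, against 15.8 ± 0.227 CPM in old control cells (SD, n = 2 each). Of 7 pentose phosphate genes, 3 rose and 2 fell in old, and 1 rose and 1 fell in young mice. Among them the transaldolase Taldo1 rose in old mice by 0.74 ± 0.16 (adjusted p = 0.00291). In young mice Taldo1 had 190 and 186 CPM in LPS and 141 and 142 CPM in control libraries. Of 11 tested HIF subunits and regulators, 4 rose and 3 fell in old, and 6 rose and 3 fell in young mice. Cited2, which competes with HIF for a coactivator, averaged 134 ± 23.2 CPM in old LPS and 306 ± 22.3 CPM in old control cells, and fell by 1.13 (adjusted p = 3.8e-06). In young mice Cited2 averaged 148 ± 20.02 CPM in LPS and 302 ± 24.5 CPM in control cells and fell by 1.03 (adjusted p = 1.36e-05). Elob, a subunit of the complex that ubiquitinates HIF, rose by 0.76 ± 0.10 in old (adjusted p = 1.51e-05) and 0.66 ± 0.10 in young mice (adjusted p = 7.53e-05). Arnt, the partner of HIF-1 alpha, fell by 0.60 in young mice (adjusted p = 0.0152). In old mice Arnt had 12.9 and 19.5 CPM in LPS and 24.6 and 23.8 CPM in control libraries.

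Of 18 other HIF targets tested, 7 rose and 5 fell in old mice, and 5 rose and 2 fell in young mice. Selenbp1 averaged 1310 ± 341 CPM in old LPS and 347 ± 9.71 CPM in old control cells, and 1391 ± 75.2 CPM in young LPS and 379 ± 6.37 CPM in young control cells. It rose by 1.97 ± 0.15 in old (adjusted p = 2.09e-06) and 1.87 ± 0.15 in young mice (adjusted p = 3.92e-06). Angptl4, an inhibitor of lipoprotein lipase, averaged 45.2 ± 10.3 CPM in old LPS and 3.33 ± 2.20 CPM in old control cells, and 30.7 ± 3.95 CPM in young LPS and 13.5 ± 4.87 CPM in young control cells. It rose by 3.74 ± 0.40 in old (adjusted p = 0.000452) and 1.12 ± 0.34 in young mice (adjusted p = 0.0437). The lipid droplet protein Plin2 rose by 1.13 ± 0.11 in old (adjusted p = 5.84e-07) and 0.65 ± 0.11 in young mice (adjusted p = 0.000178), and P4ha2, a relative of P4ha1, rose by 0.79 ± 0.12 in old (adjusted p = 7.79e-05) and 0.78 ± 0.13 in young mice (adjusted p = 0.000164). P4ha1 fell in the same cells at both ages. None of the 62 had a called interaction with edgeR, where 9 had an unadjusted p under 0.05, and DESeq2 called 1 of the 47 it gave an adjusted p for (Angptl4). Other settings with edgeR did call some: the 10% mitochondrial limit gave 1 higher of 61 (Hmox1), and no filter on low counts gave 4 higher (Angptl4, Hmox1, Pdk4 and Plin2) and 1 lower (Slc16a7) of 75. DESeq2 also made fewer calls after LPS among the 62: 16 higher and 14 lower in old mice, and 13 higher and 7 lower in young mice. Between the ages, edgeR called 0 higher and 2 lower in old than in young controls (Plin2 and Hmox1). It called 0 higher and 3 lower in old than in young LPS cells (Egln2, Aldoc and Hkdc1). In these comparisons 9 and 13 had an unadjusted p under 0.05, and DESeq2 gave 0 higher in each, with 3 and 1 lower. No share of all genes at the unadjusted limit is given here, so the counts at that limit stand without a background.

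Within AE2-like cells the members were read cluster by cluster, as a description without a test, since the clusters come from the same counts. The members were highest in different clusters. In cluster 10, led by Cxcl10 and interferon-induced guanylate-binding protein genes, Hif1a had 339 and 316 CPM in old LPS and 221 and 269 CPM in young LPS libraries. In cluster 6, led by Itih4 and Cyp2b10, it had 63.6 and 77.9 CPM in old LPS and 59.2 and 58.9 CPM in young LPS libraries. Pfkfb3 in cluster 10 had 1 and 24 UMIs in old LPS (9.97 and 45.9 CPM) and 53 and 51 UMIs in young LPS libraries (38.2 and 56.3 CPM). That cluster held 0.86% and 3.61% of AE2-like cells in old LPS, against 16.9% and 9.25% in young LPS libraries. In cluster 4, led by the neutrophil chemoattractants Cxcl2 and Cxcl1, Pfkfb3 had 2.45 and 2.86 CPM in old LPS libraries, and that cluster held 55.7% and 27.7% of their AE2-like cells, against 3.56% and 3.24% in young LPS libraries. Cluster 5 was filled by all LPS libraries. Bhlhe40 there had 89.96 and 85.7 CPM in old LPS and 46.0 and 59.6 CPM in young LPS libraries. Its values in cluster 3 were 64.4 and 48.2 CPM in old LPS and 32.2 and 42.4 CPM in young LPS libraries. Bhlhe40 in the other clusters is not given here, and the part of cluster makeup in its difference between the ages was not tested.

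**Figure D3:**
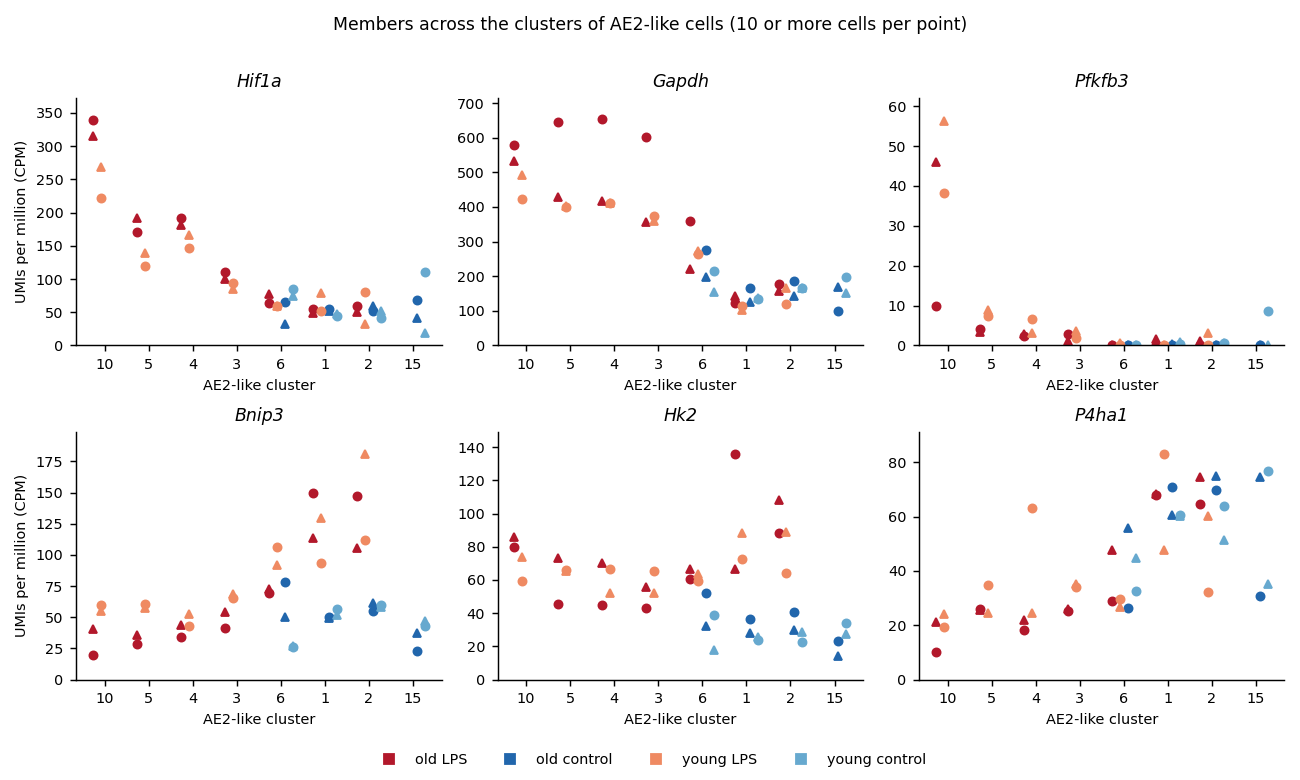
CPM of 6 genes (vertical axes) in each AE2-like cluster (horizontal axis) for old LPS, old control, young LPS and young control, with a point for each library that has at least 10 cells there. Hif1a is highest in cluster 10 (221 to 339 CPM) and low in clusters 1, 2 and 15, which hold mostly control cells.

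Some AE2-like cells of LPS libraries fell in clusters 1, 2 and 15, which hold 96.0% to 96.8% of the AE2-like cells of control libraries. In these cells Hif1a had 57.5 and 50.5 CPM in old LPS, 54.3 and 54.6 CPM in old control, 67.9 and 54.3 CPM in young LPS and 45.1 and 48.3 CPM in young control libraries. Gapdh there had 160.2 and 148 CPM in old LPS, 172 and 135 CPM in old control, 118 and 135 CPM in young LPS and 149 and 149.4 CPM in young control libraries. For P4ha1 the values were 65.7 and 71.9 CPM in old LPS, 69.5 and 66.9 CPM in old control, 54.3 and 54.3 CPM in young LPS and 62.2 and 55.6 CPM in young control libraries. In old mice the LPS and control libraries overlapped for each of these 3 genes. In young mice they did not: the LPS libraries lay above the control libraries for Hif1a and below them for Gapdh and P4ha1. The P4ha1 gap was narrow, with 54.3 CPM in both young LPS libraries against 55.6 CPM in the second young control library. These levels were not tested, and the first young LPS library has only 41 cells there, so no difference between the ages is drawn from them. Those clusters hold 42 and 326 cells of the old LPS and 41 and 105 cells of the young LPS libraries.

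Hk2 and Bnip3 were picked here after their values were seen. In the same clusters Hk2 had 103 and 85.2 CPM in old LPS, 37.6 and 28.5 CPM in old control, 67.9 and 88.8 CPM in young LPS and 23.4 and 26.9 CPM in young control libraries. Bnip3 had 148 and 110.5 CPM in old LPS, 51.3 and 54.2 CPM in old control, 104 and 156 CPM in young LPS and 57.5 and 54.3 CPM in young control libraries. For both, every LPS library lay above every control library, on 15 to 232 UMIs per LPS library. In the other AE2-like clusters Bnip3 had 36.3 and 47.5 CPM in old LPS and 66.8 and 66.8 CPM in young LPS libraries.

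Outside AE2-like cells the list was spread unevenly over the cell classes. Of the 7 classes Ankrd37 averaged highest in ciliated-like cells, with 48.9 ± 16.3 CPM in LPS and 60.4 ± 11.96 CPM in control libraries (SD, n = 4 each), against 1.72 ± 0.429 CPM in LPS and 1.73 ± 0.213 CPM in control libraries of AE2-like cells. They also held Slc16a3, with 84.2 ± 13.3 CPM in LPS and 106 ± 10.5 CPM in control libraries, and Slc2a1, with 76.0 ± 10.2 CPM in LPS and 103 ± 22.0 CPM in control libraries. Vegfa was low in ciliated-like cells, with 1 to 13 UMIs per library and 9.11 ± 3.34 CPM in LPS and 4.90 ± 1.85 CPM in control libraries. In AE2-like cells it averaged 32.0 ± 5.14 CPM in LPS and 63.9 ± 6.01 CPM in control libraries, and in club/secretory-like cells 28.2 ± 7.07 CPM in LPS and 24.7 ± 21.9 CPM in control libraries (SD, n = 3 each). Neutrophil-like cells of LPS libraries, with 40 and 11 cells in the old LPS libraries that had at least 10, averaged 1041 ± 311 CPM for Gapdh, 938 ± 321 CPM for Pkm, 229 ± 75.4 CPM for Hif1a and 84.8 ± 15.98 CPM for Slc16a3 (SD, n = 2). AE2 marker RNA stood at 2.15% to 7.42% of its AE2-like level in ciliated-like and at 0.807% to 9.62% in dendritic-like cells, a measure of free RNA or mixed droplets that was not removed.

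**Figure D4:**
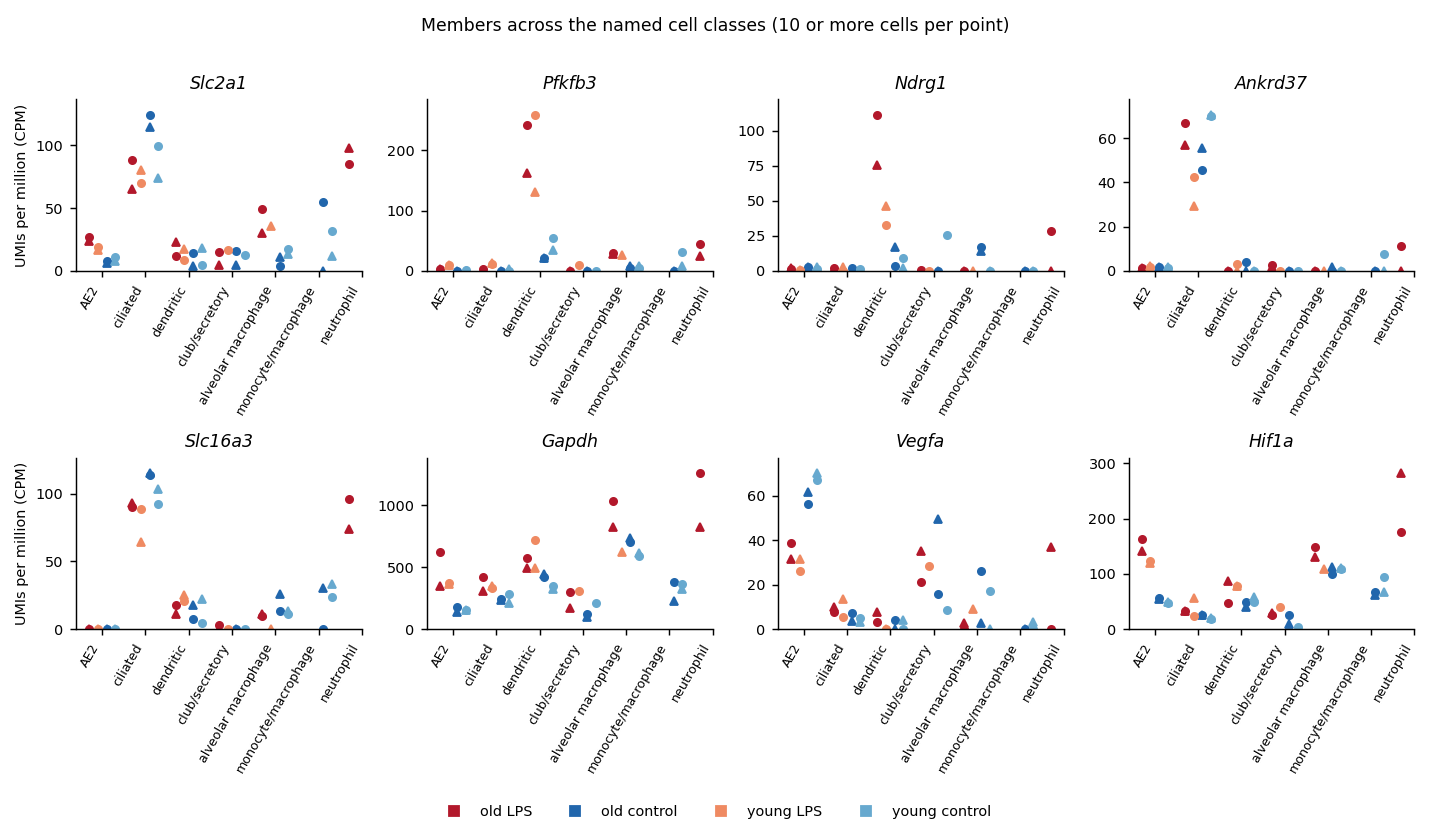
CPM of 8 genes (vertical axes) in 7 cell classes (horizontal axis), colored by group, with a circle (first lane) or triangle (second lane) for each library that has at least 10 cells of the class. Ankrd37 and Slc16a3 are near 0 in AE2-like cells and reach 70.3 and 115 CPM in ciliated-like cells, and Pfkfb3 reaches 258 CPM in dendritic-like cells after LPS.

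Ciliated-like cells, 904 in all, were tested for LPS against control over both ages, with 23 members passing the filter. Of these 5 rose and 1 fell, beside 9.64% of the 7907 genes tested called higher and 7.71% called lower. Aldoa had 737, 692, 799.8 and 773 CPM in the LPS libraries (old 1, old 2, young 1, young 2), against 508, 556, 558 and 652 CPM in the control libraries in the same order, and rose by 0.50 ± 0.09 (adjusted p = 0.00013). Gapdh had 424, 308, 330 and 349 CPM in LPS, against 240.0, 233, 281 and 207 CPM in control libraries, and rose by 0.63 ± 0.12 (adjusted p = 0.000178). For both genes every LPS library lay above every control library. Bhlhe40 rose by 1.43 ± 0.38 (adjusted p = 0.00771) on 13 to 29 UMIs per LPS library, against 1 to 8 UMIs per control library. P4ha1 fell by 1.22 (SE 0.27, adjusted p = 0.00124), with 5 to 28 UMIs per LPS and 8 to 34 UMIs per control library. DESeq2 gave neither of these calls (adjusted p up to 0.0866 for Bhlhe40 and 0.061 for P4ha1). Ldha rose by 0.37 ± 0.11 (adjusted p = 0.0197) and Pgam1 by 0.40 ± 0.12 (adjusted p = 0.0214), and neither call was made without TMM factors, with DESeq2 or without the first young LPS or the first old control library. The Ldha call was also lost without the first young or the second old control library (adjusted p up to 0.292), and the Pgam1 call without the second young control library (adjusted p up to 0.219). Control cells of this class lay mostly in cluster 9 and LPS cells mostly in cluster 7.

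The LPS effect of ciliated-like cells was set against that of AE2-like cells in a fit with the library as a block. It was higher for 3 members and lower for 3 of 28, beside 8.09% of the 11570 genes tested called higher and 6.27% called lower. Slc2a1 differed most: in ciliated-like cells it had 88.0 and 65.3 CPM in old LPS, 124 and 115 CPM in old control, 70.4 and 80.5 CPM in young LPS and 99.2 and 73.6 CPM in young control libraries. It was not called in ciliated-like cells, where it rose in AE2-like cells, and the difference of the effects was -1.73 ± 0.23 (adjusted p = 2.09e-07). The effect on Gapdh was smaller in ciliated-like cells (-0.73 ± 0.14, adjusted p = 0.00021), as was that on Pgk1 (-0.51 ± 0.18, adjusted p = 0.0445). The effects on Vegfa (1.64 ± 0.48, adjusted p = 0.0147), Pfkl (0.77 ± 0.21, adjusted p = 0.00863) and Ldha (0.61 ± 0.15, adjusted p = 0.00396) were higher than in AE2-like cells. The calls for Slc2a1 and Gapdh were made under all 13 alternatives, those for Vegfa, Pfkl and Ldha not with DESeq2, and Vegfa rests on the few UMIs given above. The Vegfa call was also lost without the first young control library (adjusted p up to 0.071), the Pfkl call without the second (adjusted p up to 0.121), and the Pgk1 call without the first old LPS, the first old control or either young control library and with DESeq2 (adjusted p up to 0.262). Without TMM factors the median of all genes in this comparison moved by -0.16, and the lower calls then numbered 6.

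Dendritic-like cells, 510 in all, are immune cells that remained after the sort. Of 18 members tested 4 rose and 2 fell, beside 18.1% of the 4575 genes tested called higher and 16.4% called lower. Pfkfb3 had 242, 163, 258 and 132 CPM in the LPS libraries (old 1, old 2, young 1, young 2), against 21.8, 21.7, 54.1 and 34.7 CPM in the control libraries, and rose by 2.67 ± 0.24 (adjusted p = 4.42e-11). Ndrg1 had 111, 75.8, 33.0 and 46.2 CPM in LPS, against 3.85, 17.4, 9.02 and 2.04 CPM in control libraries, and rose by 3.32 ± 0.44 (adjusted p = 8.4e-08). For both genes the LPS libraries lay above all control libraries. Ddit4 rose by 1.86 ± 0.30 (adjusted p = 6.01e-06) and Gapdh by 0.53 ± 0.13 (adjusted p = 0.0012), while Gpi1 fell by 0.79 (SE 0.16, adjusted p = 9.06e-05) and Ldha fell by 0.60 (SE 0.15, adjusted p = 0.000972). All 6 calls were made under all 14 alternatives.

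The makeup of the dendritic-like class differed between LPS and control libraries. Its 10 dendritic markers summed to 5263 to 7008 CPM in LPS, against 2439 to 3275 CPM in control libraries. The 9 monocyte and macrophage markers summed to 123 to 231 CPM in LPS, against 586 to 767 CPM in control libraries, with 1 at 0 in every library. Control cells lay mostly in cluster 11 and LPS cells mostly in cluster 13, whose leading genes include Ccr7, Fscn1 and Ccl22. Within cluster 11 alone Pfkfb3 lay between 12.6 and 24.8 CPM in LPS, against 9.84 to 20.4 CPM in control libraries (1 to 9 UMIs each), and within cluster 13 between 204 and 400.0 CPM in LPS libraries, against 115 CPM in the 1 control library with at least 10 cells there. How much of each change is a change of makeup was not tested.

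Against AE2-like cells, the LPS effect in dendritic-like cells was higher for 1 and lower for 7 of 28 members, beside 6.84% of the 10824 genes tested called higher and 7.52% called lower. Ndrg1 was the higher one (4.35 ± 0.64, adjusted p = 2.67e-09). The lower ones were Eno1 (-1.86 ± 0.39, adjusted p = 5.77e-05), Hk2 (-1.36 ± 0.43, adjusted p = 0.0176), Hif1a (-0.83 ± 0.27, adjusted p = 0.0221), Gapdh (-0.82 ± 0.17, adjusted p = 5.27e-05), Mif (-0.77 ± 0.22, adjusted p = 0.00482), Aldoa (-0.66 ± 0.18, adjusted p = 0.00374) and Gpi1 (-0.61 ± 0.19, adjusted p = 0.0129). Hif1a had 47.9 and 87.1 CPM in old LPS, 48.8 and 39.1 CPM in old control, 77.9 and 78.2 CPM in young LPS and 49.6 and 57.2 CPM in young control libraries of dendritic-like cells, with the first old LPS library within the control range. The calls for Ndrg1, Eno1 and Gapdh were made under all 13 alternatives. DESeq2 gave none of the other 5, and each was lost when 1 of up to 3 libraries was left out: the first old LPS library (Hif1a, Mif, Aldoa, Gpi1), the first old control library (Hif1a, Mif, Aldoa), the second young control library (Hif1a, Gpi1), and the first young LPS or second old control library (Hk2), with adjusted p of up to 0.212.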

How the data were processed

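Cells of 4 groups were pooled per 10x lane after tagging with antibody barcodes, and the deposited tables hold UMI counts per gene and barcode for each of the 8 libraries. Per the submitters' processing notes the build was mm10, and the tools named are R 3.6.3, Seurat 3.1.5 and 3.1, Cell Ranger 3.1.0 and, with no version, bcl2fastq and STAR. The authors deposited counts without scaling, with at least 500 UMIs in every barcode. How barcodes were assigned to groups is not given in the sources used here. In every library the expected antibody tag took a median of 98.7% to 99.5% of a barcode's tag counts. No barcode was shared within a lane and 2 were shared between tables.

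Barcodes with at least 500 genes and at most 20% mitochondrial UMIs were kept (2803 removed, 12.1% to 34.7% per library), and 13 doublets called by Scrublet were removed. With so few calls the caller was not relied on. Whether doublets had been removed before deposit is not given in the sources used here, and doublets of cells of 1 group may remain. Clusters were built with scanpy 1.11.5 (2000 variable genes, 30 principal components, 20 neighbours, Leiden resolution 1) and named from marker lists. Counts were summed per library and class. They were tested with edgeR 4.0.16 (glmQLFit robust, TMM, filterByExpr, all 8 libraries, group only) on R 4.3.3, with Benjamini-Hochberg adjustment over all genes tested. Levels are CPM of the plain sums, and fold changes use TMM scaling. Intervals cover counting error only.

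Of the 31 members, Aldoa has 2 identifiers, and the one with 2 UMIs in all cells was not used. All members are given by role. Of the other pathway genes, the text names per LPS comparison up to 12 called genes with the largest change among those with at least 20 CPM in 1 of the 2 groups. Of these, 1 gene is not reported here. Members, lists and rules were chosen with earlier results of these data known. End sequence shared between genes was counted as stretches of 90 bases within the last 500 bases of the annotated transcripts (GENCODE, GRCm38). The replicate number marks the shared lane and repeat experiment in the labels. Deviations of same-numbered libraries from their group means correlated by -0.013 to 0.162 over genes, so the block (lane) was run as an alternative. DESeq2 1.42.0, no TMM factors, no filter on low counts, a limit of 10% mitochondrial UMIs, removal of the 3% of cells with the highest doublet scores and leaving out each library were the other alternatives.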

Additional observations from a re-analysis of the deposited data

Results flagged for a closer look

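Each difference below was tested, by the interaction of LPS and age or by the class term, with edgeR's quasi-likelihood test, and is a log2 difference of LPS effects with its standard error. In AE2-like cells the LPS effect in old minus that in young mice was 1.48 ± 0.19 for Bhlhe40 (adjusted p = 0.00293) and 1.01 ± 0.14 for Adora2b (adjusted p = 0.00328).

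The LPS effect in ciliated-like minus that in AE2-like cells was -1.73 ± 0.23 for Slc2a1, -0.73 ± 0.14 for Gapdh, -0.51 ± 0.18 for Pgk1, 0.61 ± 0.15 for Ldha, 0.77 ± 0.21 for Pfkl and 1.64 ± 0.48 for Vegfa. In dendritic-like minus AE2-like cells it was 4.35 ± 0.64 for Ndrg1, -1.86 ± 0.39 for Eno1, -1.36 ± 0.43 for Hk2, -0.83 ± 0.27 for Hif1a, -0.82 ± 0.17 for Gapdh, -0.77 ± 0.22 for Mif, -0.66 ± 0.18 for Aldoa and -0.61 ± 0.19 for Gpi1. Only Slc2a1 and Gapdh in ciliated-like cells, and Ndrg1, Eno1 and Gapdh in dendritic-like cells, were called under all 13 alternatives. In both classes LPS and control cells lay mostly in different clusters, and the part of makeup in these differences was not tested.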

How the results depend on the processing

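No member changed direction among called values under the alternatives, and the cause of the changes below was not tested. Of the members called, 14 of 17 (young LPS against young control), 16 of 17 (old LPS against old control) and 2 of 2 (interaction) were called under all 14 alternatives. Leaving out 1 library gave 13 to 16 members higher and 3 to 6 lower for LPS in old mice, and 8 to 12 higher and 6 to 8 lower in young mice. For old against young controls it gave 0 to 2 lower, and DESeq2 gave 1 lower. For old against young LPS it gave 1 to 11 higher and 1 to 6 lower. There, DESeq2 gave 1 higher, and no filter on low counts and the 10% mitochondrial limit gave 2 lower each. The interaction had 5 higher without the filter on low counts, and 2 to 9 higher and 0 to 3 lower with 1 library left out.

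With the replicate block (the lane) old against young LPS had 5 higher and 2 lower. The block gave 14 higher and 4 lower for LPS in old mice, 11 higher and 7 lower in young mice, 5 higher and 1 lower in ciliated-like and 4 higher and 2 lower in dendritic-like cells. Beyond the calls given above for Pkm, Bnip3 and Hif1a it changed none for the members in AE2-like cells.

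In ciliated-like cells DESeq2 gave 2 higher and 0 lower, no TMM factors gave 3 higher and 2 lower, and leaving out 1 library gave 3 to 5 higher and 1 to 2 lower (2 without the first young control or the second old LPS library). Against AE2-like cells the ciliated-like effect had 0 higher with DESeq2, 6 lower without TMM factors, 5 lower without the highest doublet scores, and 2 to 4 higher and 2 to 5 lower with 1 library left out (5 without the second young LPS library). The dendritic-like effect against AE2-like cells had 2 higher without the filter on low counts or the highest doublet scores, 2 lower with DESeq2, and 1 to 2 higher and 4 to 7 lower with 1 library left out. The 2 higher came without the first young control, the second young LPS, the second old control or either old LPS library, and the 4 lower without the first old control or the first old LPS library. Depth limits Pfkfb3 in old controls, Ndrg1 and Ankrd37 in AE2-like cells, and Slc16a3, Egln3 and Adm, which could not be tested there.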
